A study of Mus musculus with 7 samples.

Results

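The aggrecanases, matrix metalloproteinases (MMPs), and tissue inhibitors of metalloproteinases (TIMPs) described here are 10 of the 55401 genes in the deposited count table, found by an exact match of the gene name. They are the 2 aggrecanase genes *Adamts4* and *Adamts5*, the 5 MMP genes *Mmp2*, *Mmp3*, *Mmp9*, *Mmp13*, and *Mmp14*, and the 3 inhibitor genes *Timp1*, *Timp2*, and *Timp3*. Aggrecanases and MMPs are zinc-dependent proteases that are made as latent proenzymes, become active once a propeptide is removed, and are held in check by TIMPs, which bind the active site. In articular cartilage, aggrecanases cut the core protein of aggrecan, the proteoglycan that gives the tissue its resistance to compression, and collagenases cut the triple helix of type II collagen. In OA, the loss of aggrecan and collagen by these routes is a central feature of cartilage breakdown.

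RNA-Seq was performed on knee joint tissue from male mice of the C57BL/6J background that underwent destabilization of the medial meniscus (DMM), a surgical model of OA, at 10 weeks of age, with collection 2 weeks after surgery. By the labels, 4 samples were WT and 3 were *Trpc1*-/-, from mice with a constitutive deletion of an exon of the calcium channel gene *Trpc1*, and every sample had undergone DMM. The Methods give 3 WT and 4 *Trpc1*-/- samples, and the labels were followed. Between 2 and 3 mice were pooled for a sample, and the Methods include subchondral bone with the cartilage. Mouse numbers fall in a lower series for WT replicates 1 and 2 and all *Trpc1*-/- samples and in a higher series for WT replicates 3 and 4, so the series cannot be fully told apart from genotype. Fits with the series as a covariate and fits of the lower series alone both compare WT replicates 1 and 2 with the *Trpc1*-/- samples. They are thus not separate checks. Total counts on genes were 52142451, 99831099, 116815517, and 75284143 in WT replicates 1 to 4 and 118254070, 94972137, and 106517535 in *Trpc1*-/- replicates 1 to 3. A gene with 3 counts, taken as the floor of detection, would have had between 0.0244 and 0.0632 counts after scaling to a common library size (CPM), and each of the 10 genes was above this in every sample.

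The labels were checked first. *Trpc1* had 4.62 ± 0.229 CPM (SD, n = 4) among WT and 3.39 ± 0.379 CPM (SD, n = 3) among *Trpc1*-/- samples, with no overlap between the groups. The same was so, with *Trpc1*-/- samples lower, for 6.42% of all genes tested. The adjusted P of *Trpc1* was 0.407 in edgeR and 0.05001 in DESeq2, so neither called it at 0.05. This is a weak check of the labels. The counts cover the whole gene and not the deleted exon alone, so the remaining signal does not check the deletion itself. Of the tissue, all 15 chondrocyte markers were detected, led by *Col2a1*, the type II collagen gene, at 2977 ± 248 CPM (SD, n = 4) among WT. Red cell and neutrophil genes were at higher levels than this, with *Hbb-bs*, an adult beta-globin gene, at 9916 ± 2689 CPM and *S100a9*, a neutrophil calcium-binding protein gene, at 4331 ± 1910 CPM (SD, n = 4) among WT. Genes of blood and marrow cells were thus abundant in the tissue labelled as cartilage. WT replicate 1 stood apart from the other libraries, with a mean correlation of 0.947 with them against 0.973 to 0.980 for the other samples, and some results below are given also without it.

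In brief, *Adamts4* was lower in all 3 *Trpc1*-/- samples than in any of the 4 WT samples, at 0.548 of the WT level (95% confidence interval 0.441 to 0.680). All 10 genes had a mean below that of WT in *Trpc1*-/- samples, with a median log2 fold change (logFC) of −0.23, against −0.0088 over the 16429 genes tested, of which 51.9% had a logFC below 0. For the other 9 genes the groups overlapped, whereas groups without overlap were seen for 13.6% of all genes tested, 6.42% with *Trpc1*-/- samples lower and 7.15% with them higher. The collagenase gene *Mmp13* had the logFC nearest 0 of the 10, and *Mmp9*, the most abundant protease gene of the set, varied more among WT samples than between genotypes.

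**Figure D1:**
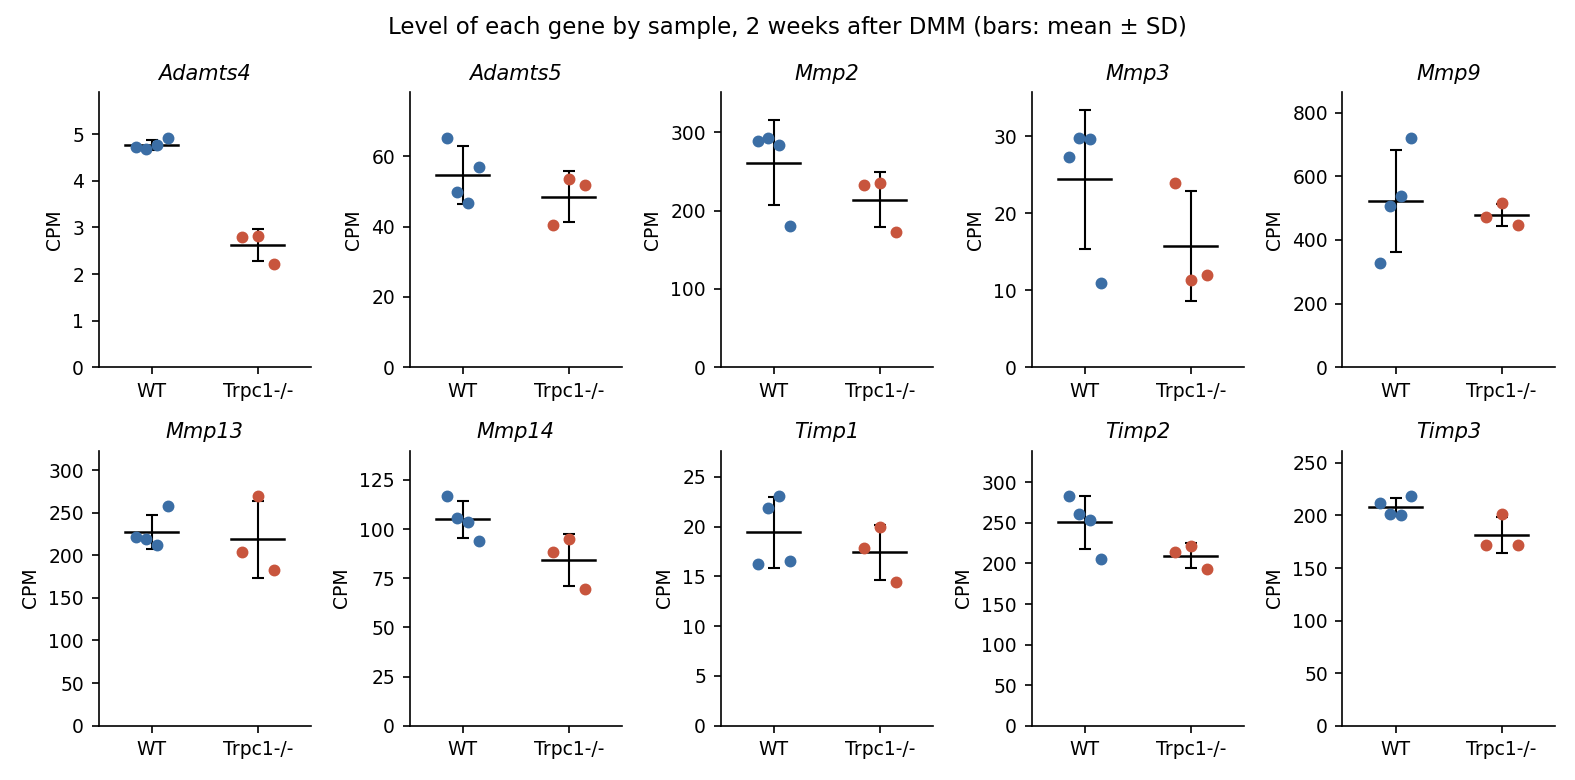
Each panel plots the CPM of 1 gene (linear axis from 0) in the 4 WT samples (blue) and the 3 *Trpc1*-/- samples (red), with the mean and SD as black bars. The groups are separate for *Adamts4*, with WT samples from 4.68 to 4.92 and *Trpc1*-/- samples from 2.22 to 2.82 CPM, and overlap for the other 9 genes.

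*Adamts4* (ENSMUSG00000006403, GRCm38 chr1:171250421-171260637, plus strand) encodes an aggrecanase that is inducible by inflammatory cytokines. It had 4.72, 4.68, 4.76, and 4.92 CPM in WT replicates 1 to 4 and 2.80, 2.82, and 2.22 CPM in *Trpc1*-/- replicates 1 to 3. The 4 WT values lay close together, all 3 *Trpc1*-/- values lay below them, and *Trpc1*-/- replicate 3 was the lowest. These levels rested on 224 to 585 counts in WT and 217 to 343 counts in *Trpc1*-/- samples, far above the floor. The logFC was −0.87 (SE 0.13), and the Benjamini-Hochberg adjusted P was 0.334 by the quasi-likelihood test of edgeR and 8.74e-07 by DESeq2. EdgeR placed the gene at rank 11 of the 16429 genes by unadjusted P, and it was not called, as was so for all genes tested (1643 had an unadjusted P under 0.05). DESeq2, which called 1.79% of all genes, called it, and it kept the call with any 1 of the 7 samples left out, at adjusted P values between 3.32e-06 and 0.00100. In DESeq2, the call was lost in 2 fits with other alternatives, 1 of them with the mean log2 CPM of erythroid markers (the erythroid score) as a covariate (logFC −0.84, adjusted P = 0.0553), and over the alternatives tried without leaving a sample out the adjusted P ranged from 1.21e-07 to 0.162. The erythroid score was higher in each *Trpc1*-/- sample than in each WT sample. Fits with it, here and below, thus cannot fully tell it apart from genotype.

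*Adamts5* (ENSMUSG00000022894, chr16:85856173-85901828, minus strand) encodes the aggrecanase whose loss protects mouse cartilage in the DMM model. It had 65.3, 49.99, 46.7, and 57.1 CPM in WT replicates 1 to 4 and 40.3, 53.6, and 51.8 CPM in *Trpc1*-/- replicates 1 to 3. Only *Trpc1*-/- replicate 1 lay below the lowest WT sample, and the groups overlapped. The logFC was −0.17 (SE 0.14), for which edgeR gave an adjusted P of 0.670 and DESeq2 gave 0.701, and the 95% confidence interval ran from −0.51 to 0.16. With 1 sample left out the logFC lay between −0.26 and −0.055, and with the erythroid score as a covariate it turned to 0.43 (unadjusted P = 0.0149, adjusted P = 0.147 in edgeR). Per kb of exon, the scale on which levels of different genes can be compared, *Adamts5* was the more abundant aggrecanase gene in all 7 samples. The level of *Adamts5* per kb was 6.16, 4.76, 4.38, and 5.17 times that of *Adamts4* in WT replicates 1 to 4 and 6.42, 8.47, and 10.4 times in *Trpc1*-/- replicates 1 to 3. *Adamts4* thus made up 16.5 ± 1.97% (SD, n = 4) of the summed aggrecanase level per kb among WT and 10.9 ± 2.37% (SD, n = 3) among *Trpc1*-/- samples.

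Of 17 other ADAMTS protease genes, 13 were tested, and all 13 had a mean in *Trpc1*-/- samples below that of WT, and the list median of the logFC was −0.40. At an unadjusted P under 0.05 in edgeR, 5 of the 13 were lower, against 5.49% of all genes tested. Neither edgeR nor DESeq2 called any of the 13 after adjustment. The number lower at that P was 1 without *Trpc1*-/- replicate 1 or 3 and 3 without WT replicate 2. It was 11 with the mouse number series as a covariate and 10 with the lower mouse number series alone, which take the genotype difference from the same samples. *Adamts2*, which removes the N-propeptide of fibrillar procollagens and was the most abundant of the list by CPM, had 113 ± 18.7 CPM (SD, n = 4) among WT and 89.2 ± 10.1 CPM (SD, n = 3) among *Trpc1*-/- samples. *Adamts15*, a further protease of aggrecan and versican, had 9.72 ± 3.10 and 5.95 ± 0.611 CPM, with groups that did not overlap. *Adamts10*, which binds fibrillin, had 74.5 ± 15.7 and 52.5 ± 7.04 CPM, also without overlap. These were the 2 of the 13 genes without overlap, against 6.42% of all genes tested with *Trpc1*-/- samples lower. *Adamts16* and *Adamts18* had a logFC of −0.70 and −0.50, and their groups overlapped. WT replicate 1 was the highest sample for *Adamts2*, *Adamts10*, *Adamts15*, and *Adamts18*. With the erythroid score as a covariate, 3 of the 13 genes kept a logFC below 0, with 0 lower and 1 higher at an unadjusted P under 0.05, and a median logFC of 0.27, so the direction of this list depended on that setting. The median was −0.23 without WT replicate 1 and −0.62 with the mouse number series as a covariate.

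*Mmp13* (ENSMUSG00000050578, chr9:7272514-7283331, plus strand) encodes collagenase 3, the main protease of type II collagen in OA, which is also made by hypertrophic chondrocytes and osteoblasts. It had 221, 219, 212, and 257 CPM in WT replicates 1 to 4 and 204, 269, and 183 CPM in *Trpc1*-/- replicates 1 to 3. The highest and the lowest of the 7 samples were both *Trpc1*-/-. The logFC was −0.056 (SE 0.15), for which edgeR gave an adjusted P of 0.902 and a 95% confidence interval from −0.40 to 0.28. It lay between −0.24 and 0.060 with 1 sample left out and was 0.25 with the erythroid score as a covariate.

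*Mmp3* (ENSMUSG00000043613, chr9:7445822-7455975, plus strand) encodes stromelysin 1, which degrades proteoglycans and activates other latent MMPs. It had 27.3, 29.8, 29.7, and 10.9 CPM in WT replicates 1 to 4 and 24.0, 11.4, and 11.9 CPM in *Trpc1*-/- replicates 1 to 3. The samples fell at either a high or a low level, with WT replicate 4 beside *Trpc1*-/- replicates 2 and 3 and *Trpc1*-/- replicate 1 near the other WT samples. The logFC was −0.63 (SE 0.40), for which edgeR gave an adjusted P of 0.592. It was between −1.07 and −0.45 with 1 sample left out in turn and −1.37 with the erythroid score, and its 95% confidence interval ran from −1.56 to 0.30.

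*Mmp13* and *Mmp3* are classical targets of AP-1, the Fos and Jun transcription factors, and their promoters are shown because they hold the AP-1 motif while the levels of both genes varied differently across the samples. Promoter sequences of 250 bases before to 50 bases after the start site were found for 6 of the 10 genes (*Mmp3*, *Mmp13*, *Mmp14*, *Timp1*, *Timp2*, and *Timp3*) in RefSeq (GRCm38.p6). The AP-1 motif TGANTCA, which reads the same on both strands, had a match in 2 of these 6, those of *Mmp3* and *Mmp13*, and in 7.81% of all 32851 promoters of this length. The promoters are printed 5′ to 3′ on the plus strand of GRCm38.p6, at chr9:7445572-7445871 for *Mmp3* and chr9:7272264-7272563 for *Mmp13*, with the AP-1 match in capitals.
Mmp3: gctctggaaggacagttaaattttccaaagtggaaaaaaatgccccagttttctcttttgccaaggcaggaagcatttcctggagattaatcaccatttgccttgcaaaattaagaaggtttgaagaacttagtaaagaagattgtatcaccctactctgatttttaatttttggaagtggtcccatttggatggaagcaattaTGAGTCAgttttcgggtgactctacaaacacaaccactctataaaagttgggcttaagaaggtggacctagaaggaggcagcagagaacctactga
Mmp13: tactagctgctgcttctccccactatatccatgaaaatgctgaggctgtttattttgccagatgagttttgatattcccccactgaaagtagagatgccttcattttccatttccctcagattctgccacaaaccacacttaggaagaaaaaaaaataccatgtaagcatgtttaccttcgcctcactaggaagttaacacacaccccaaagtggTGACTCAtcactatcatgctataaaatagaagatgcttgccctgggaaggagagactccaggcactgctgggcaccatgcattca
The match began 46 bases before the start site in *Mmp3* and 35 bases before it in *Mmp13*. Both promoters also held TATAAA, found in 13.6% of all promoters, and the Ets motif AGGAAG, found in 35.4% and held by *Mmp14*, *Timp1*, and *Timp3* as well. The RUNX motif ACCACA, with a match in 16.8% of all promoters, was present in *Mmp13* and *Mmp14*, and the GC box GGGCGG, with 35.7%, in *Mmp14*, *Timp1*, *Timp2*, and *Timp3*. All motifs were searched on both strands, none of the AP-1 matches overlapped a match of another motif, and a match in letters does not show that a factor binds there.

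Of 22 genes for inducers and transcription factors of metalloproteinase genes, 18 were tested, 5 with a mean above and 13 with a mean below WT in *Trpc1*-/- samples. The median logFC was −0.12, and it was −0.053 without WT replicate 1 and −0.047 with the erythroid score. With that score or with the mouse number series as a covariate, 8 had a logFC above and 10 below 0. The AP-1 gene *Fosl2* had 99.8 ± 8.14 CPM (SD, n = 4) among WT and 85.3 ± 2.42 CPM (SD, n = 3) among *Trpc1*-/- samples, a logFC of −0.23 with an adjusted P of 0.469 in edgeR. *Tgfb2*, a growth factor gene, had 24.5 ± 5.67 and 18.2 ± 2.32 CPM, a logFC of −0.42 with an adjusted P of 0.492 in edgeR, and of −0.26 without WT replicate 1. These 2 of the 18 were the genes of the list that passed an unadjusted P under 0.05, against 10% of all genes tested. DESeq2 called 0 of the 18. The number that passed was between 0 and 3 with 1 sample left out. It was 5 (all lower) with the mouse number series as a covariate or the lower series alone, and 3 higher and 3 lower with the erythroid score. *Ets1*, the most abundant gene of the list, had 137 ± 18.2 and 145 ± 7.56 CPM, and without WT replicate 1 both means were 145 CPM. *Il17a* had 0 counts in every sample, and *Il6*, *Fosl1*, and *Elf3* were below the filter on low counts.

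*Mmp13* and *Mmp3* lie 173.3 kb apart in a cluster of 10 MMP genes that spans 427.1 kb of chromosome 9. Of these 10 genes, 5 were tested, and 4 (*Mmp1a*, *Mmp1b*, *Mmp7*, and *Mmp20*) had 0 counts in every sample. The tested genes of the cluster differed in level. *Mmp8*, the collagenase of neutrophil granules, had 371 ± 137 CPM (SD, n = 4) among WT and 436 ± 41.1 CPM (SD, n = 3) among *Trpc1*-/- samples, a logFC of 0.23. This rested on WT replicate 1, without which *Mmp8* had 438 ± 36.4 CPM (SD, n = 3) among WT and a logFC of −0.010. *Mmp12*, a macrophage elastase gene, had 4.44 ± 3.31 and 2.41 ± 0.993 CPM, and *Mmp27* had 1.27 ± 0.190 and 1.505 ± 0.422 CPM, with overlapping groups for each of the 5 genes.

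*Mmp2* (ENSMUSG00000031740, chr8:92827291-92853420, plus strand) encodes gelatinase A, which degrades denatured collagen and is typical of fibroblasts and other stromal cells. It had 289, 293, 283, and 180.2 CPM in WT replicates 1 to 4 and 232, 236, and 173 CPM in *Trpc1*-/- replicates 1 to 3. WT replicate 4 was far below the other WT samples and beside the lowest *Trpc1*-/- sample. The logFC was −0.29 (SE 0.20), for which edgeR gave an adjusted P of 0.608, and it was −0.43 without WT replicate 4 and −0.16 without *Trpc1*-/- replicate 3.

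*Mmp14* (ENSMUSG00000000957, chr14:54431612-54445364, plus strand) encodes a membrane-anchored collagenase that, with TIMP2 as a bridge, activates latent MMP2 at the cell surface. It had 117, 106, 104, and 93.8 CPM in WT replicates 1 to 4 and 88.4, 95.1, and 69.3 CPM in *Trpc1*-/- replicates 1 to 3. *Trpc1*-/- replicate 2 lay above WT replicate 4, and the other 2 *Trpc1*-/- samples lay below all WT samples. The logFC was −0.32 (SE 0.13), with an unadjusted P of 0.0394 and an adjusted P of 0.482 in edgeR, and an adjusted P of 0.303 in DESeq2. It was −0.19 without *Trpc1*-/- replicate 3 and −0.10 with the erythroid score (unadjusted P = 0.658).

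*Mmp9* (ENSMUSG00000017737, chr2:164940780-164955850, plus strand) encodes gelatinase B, which is made in quantity by osteoclasts and stored in neutrophil granules. It had 329, 507, 537, and 721 CPM in WT replicates 1 to 4 and 473, 514.5, and 446 CPM in *Trpc1*-/- replicates 1 to 3. The highest and the lowest of the 7 samples were both WT, 2.19-fold apart, while the *Trpc1*-/- samples lay within 1.15-fold of each other. The logFC was −0.13 (SE 0.24), for which edgeR gave an adjusted P of 0.848, and it moved both ways, to 0.062 without WT replicate 4, 0.19 with the mouse number series as a covariate, −0.30 without WT replicate 1, and −0.51 with the erythroid score.

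Markers of the cells known to make *Mmp9* varied among the samples as well. The 10 osteoclast markers, of which *Ctsk*, the cathepsin K gene, was the most abundant over all 7 samples, summed to 666, 824, 863, and 1103 CPM in WT replicates 1 to 4 and 827, 962, and 700.1 CPM in *Trpc1*-/- replicates 1 to 3. The 13 neutrophil markers, led by *S100a9*, summed to 5800, 14566, 16659, and 18333 CPM in WT and 16918, 13555, and 17735 CPM in *Trpc1*-/- samples. In both lists every marker was detected, WT replicate 1 had the lowest sum, and WT replicate 4 had the highest. Of the osteoclast markers 4 had a higher and 6 a lower mean in *Trpc1*-/- samples, and of the neutrophil markers all 13 had a higher mean, with 0 of either list at an unadjusted P under 0.05 in edgeR and 0 called by DESeq2. The split of the osteoclast markers turned over, with 8 above 0 with the mouse number series as a covariate or the lower series alone, 7 without WT replicate 4, and 2 without WT replicate 1. The direction of the neutrophil markers rested on WT replicate 1, without which 10 of the 13 had a logFC below 0 and the WT mean of the sum was 16519 CPM, against 16069 CPM among *Trpc1*-/- samples. With the erythroid score as a covariate all 13 had a logFC below 0. Over the 7 samples, log2 *Mmp9* had a Pearson's r of 0.916 and a Spearman's rho of 0.929 with the log2 osteoclast sum, and an r of 0.790 over the 5 samples left without the 2 farthest from the median. With the neutrophil sum, its r was 0.781 and its rho 0.393, and r was 0.348 over the 5 samples, so that relation rested on the samples left out. For *Mmp8* the r with the neutrophil sum was 0.997, its rho 1.0, and its r over the 5 samples 0.979. These samples share the genotype difference and the scaling of their libraries. In bulk samples, fewer cells of a type and less RNA per cell cannot be told apart, and the part of cell content in these levels was not tested.

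**Figure D2:**
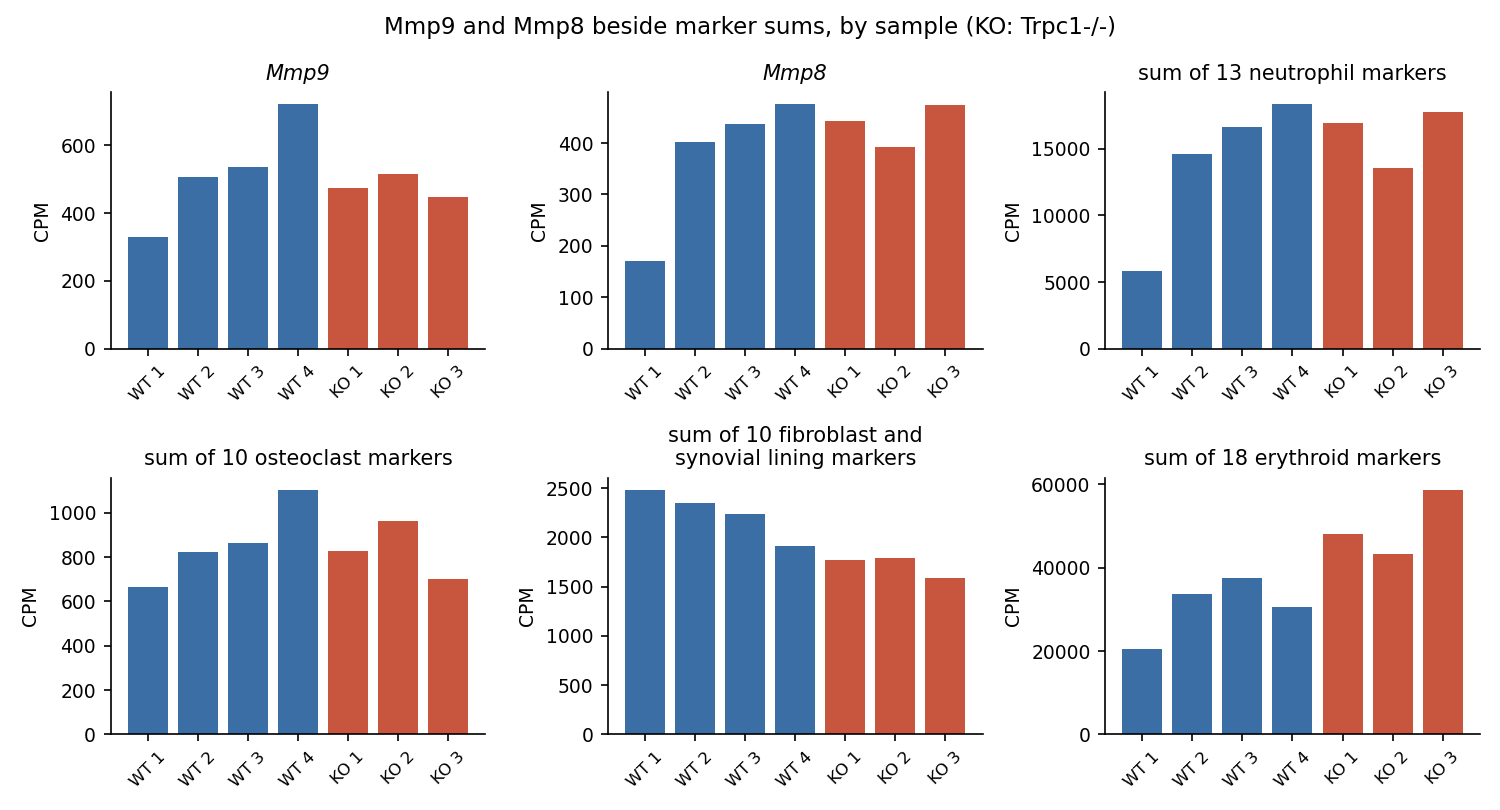
Bars give the CPM (linear axis from 0) of *Mmp9*, of *Mmp8*, and of the summed neutrophil, osteoclast, fibroblast and synovial lining, and erythroid markers in the 4 WT (blue) and 3 *Trpc1*-/- samples (red, marked KO). *Mmp9* and the osteoclast sum are both lowest in WT replicate 1 and highest in WT replicate 4, *Mmp8* follows the neutrophil sum, and the erythroid sum is higher in each *Trpc1*-/- sample than in each WT sample.

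Beyond the 5 MMP genes above, 18 further MMP genes were examined and 11 were tested, 2 with a mean above (*Mmp8* and *Mmp27*) and 9 with a mean below WT in *Trpc1*-/- samples. Without WT replicate 1, 10 had a logFC below 0. The median logFC was −0.27. *Mmp11*, the stromelysin 3 gene, had 5.87 ± 0.470 CPM (SD, n = 4) among WT and 4.23 ± 0.608 CPM (SD, n = 3) among *Trpc1*-/- samples, with a logFC of −0.47. *Mmp23* had 6.93 ± 0.334 and 5.57 ± 0.347 CPM, with a logFC of −0.31. *Mmp28*, the epilysin gene, had 8.48 ± 0.676 and 7.04 ± 0.797 CPM, with a logFC of −0.27. These 3 of the 11 genes were lower at an unadjusted P under 0.05 in edgeR, against 5.49% of all genes tested. Their adjusted P values in edgeR were 0.407, 0.419, and 0.499, and DESeq2 called 0 of the 11. In edgeR 1 was lower at that P without *Trpc1*-/- replicate 3. The groups did not overlap, with *Trpc1*-/- samples lower, for 3 of the 11 genes, against 6.42% of all genes tested. *Mmp11* and *Mmp23* were 2 of these. *Mmp15*, a membrane-anchored MMP gene, had no overlap either, at 3.05 ± 1.19 and 2.12 ± 0.132 CPM, and is named after its values were seen. Its WT mean rested in part on WT replicate 1, without which it was 2.46 CPM and the logFC went from −0.52 to −0.22.

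The TIMPs differ in how they are regulated, with *Timp1* inducible by cytokines, *Timp2* expressed widely in stromal cells, and *Timp3* bound to the matrix and the strongest inhibitor of aggrecanases. *Timp1* (ENSMUSG00000001131, chrX:20870166-20874735, plus strand) had 16.3, 21.9, 23.0, and 16.5 CPM in WT replicates 1 to 4 and 17.8, 19.95, and 14.5 CPM in *Trpc1*-/- replicates 1 to 3. *Timp2* (ENSMUSG00000017466, chr11:118301069-118355740, minus strand) had 283, 260.5, 254, and 206 CPM in WT and 214, 222, and 193 CPM in *Trpc1*-/- samples. *Timp3* (ENSMUSG00000020044, chr10:86300372-86349506, plus strand) had 211, 201, 200.4, and 218 CPM in WT and 172, 201, and 172 CPM in *Trpc1*-/- samples. *Trpc1*-/- replicate 3 was the lowest of the 7 samples for each of the 3 genes, and the groups overlapped for each, for *Timp3* through *Trpc1*-/- replicate 2 alone. The logFC of *Timp1* was −0.16 (SE 0.17), for which edgeR gave an adjusted P of 0.728, and it lay between −0.27 and −0.040 with 1 sample left out. That of *Timp2* was −0.26 (SE 0.12), for which edgeR gave an adjusted P of 0.525 and DESeq2 gave 0.402. That of *Timp3* was −0.19 (SE 0.092), for which edgeR gave an adjusted P of 0.515 and DESeq2 gave 0.310. With the erythroid score the logFC was −0.42 for *Timp1*, −0.11 for *Timp2*, and 0.0070 for *Timp3*. With all samples, no inhibitor gene of the 3 was called by either tool. DESeq2 called *Timp2* with WT replicate 4 left out (adjusted P = 0.0471) and *Timp3* with *Trpc1*-/- replicate 2 left out (adjusted P = 0.0308), and in none of its 8 fits with other alternatives. *Timp2* overlaps *Cep295nl* on the same strand, so counts in their shared stretch are uncertain, and *Timp1* and *Timp3* overlap *Syn1* and *Syn3* on the opposite strand. The libraries were stranded and the authors aligned the reads with a strand setting, which separates pairs on opposite strands.

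**Figure D3:**
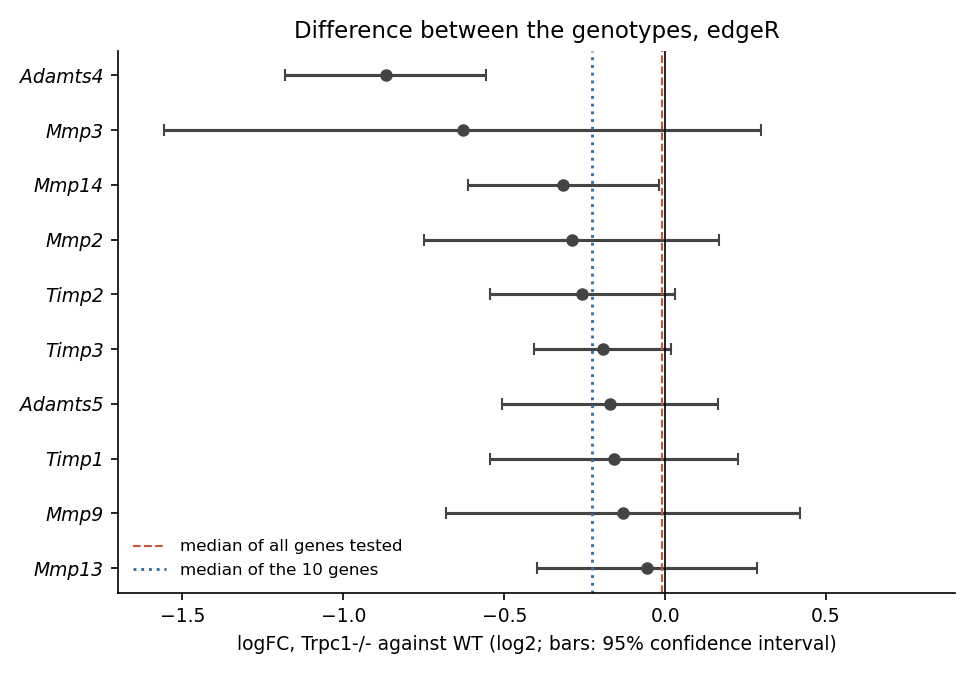
Points give the logFC of each of the 10 genes in *Trpc1*-/- against WT samples (log2, edgeR, 3 against 4 samples) and bars the 95% confidence interval, with the median of the 10 genes and of all genes tested as vertical lines. All points lie below 0, and the intervals of *Adamts4* and *Mmp14* do not reach 0.

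Of 11 other inhibitors and clearance receptors, 9 were tested, 3 with a mean above and 6 with a mean below WT in *Trpc1*-/- samples. The median logFC was −0.32, against −0.11 without WT replicate 1 and 0.059 (5 genes above and 4 below 0) with the erythroid score. *Sdc4*, a syndecan that takes part in the activation of ADAMTS5, had 85.0 ± 8.82 CPM (SD, n = 4) among WT and 66.4 ± 2.99 CPM (SD, n = 3) among *Trpc1*-/- samples. Its logFC was −0.36 with an adjusted P of 0.396 in edgeR and 0.0504 in DESeq2. It was the 1 gene of the 9 without overlap, against 6.42% of all genes tested with *Trpc1*-/- samples lower. *Timp4* had the opposite direction, at 2.54 ± 0.236 and 4.06 ± 1.94 CPM and a logFC of 0.68 with an adjusted P of 0.499 in edgeR. Its mean in *Trpc1*-/- samples rested on replicate 3, at 6.30 CPM against 2.77 and 3.12 CPM in replicates 1 and 2. *Lrp1*, the endocytic receptor that clears ADAMTS5 and MMP13 and the most abundant gene of the list, had 725 ± 201 and 582 ± 66.6 CPM, and without WT replicate 1 its WT mean was 626 CPM and its logFC went from −0.32 to −0.11.

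Per kb of exon, the order of the mean levels in WT samples was *Mmp9*, *Mmp13*, *Mmp2*, *Timp2*, *Timp3*, *Timp1*, *Mmp14*, *Mmp3*, *Adamts5*, and *Adamts4*, and it was the same in *Trpc1*-/- samples. *Mmp9* had 148 ± 45.4 CPM per kb (SD, n = 4) among WT. *Mmp13* followed at 85.1 ± 7.63, *Mmp2* at 77.5 ± 16.1, and *Timp2* at 64.4 ± 8.32 CPM per kb. At the lower end stood *Adamts5* with 5.08 ± 0.762 and *Adamts4* with 0.992 ± 0.0220 CPM per kb. The WT ranges of neighbours in this order overlapped except between *Timp2* and *Timp3*, between *Mmp3* and *Adamts5*, and between *Adamts5* and *Adamts4*, where the means were 2.52, 2.67, and 5.12-fold apart. *Mmp13* was above *Mmp2* in 4 of the 7 samples. With the longest transcript as the length, *Mmp14* moved ahead of *Timp1*, the other neighbours kept their order, and the means of *Timp2* and *Timp3* were 1.54-fold apart. With that length, the WT ranges also did not overlap between *Mmp9* and *Mmp13*, between *Timp3* and *Timp1*, and between *Mmp14* and *Mmp3*.

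**Figure D4:**
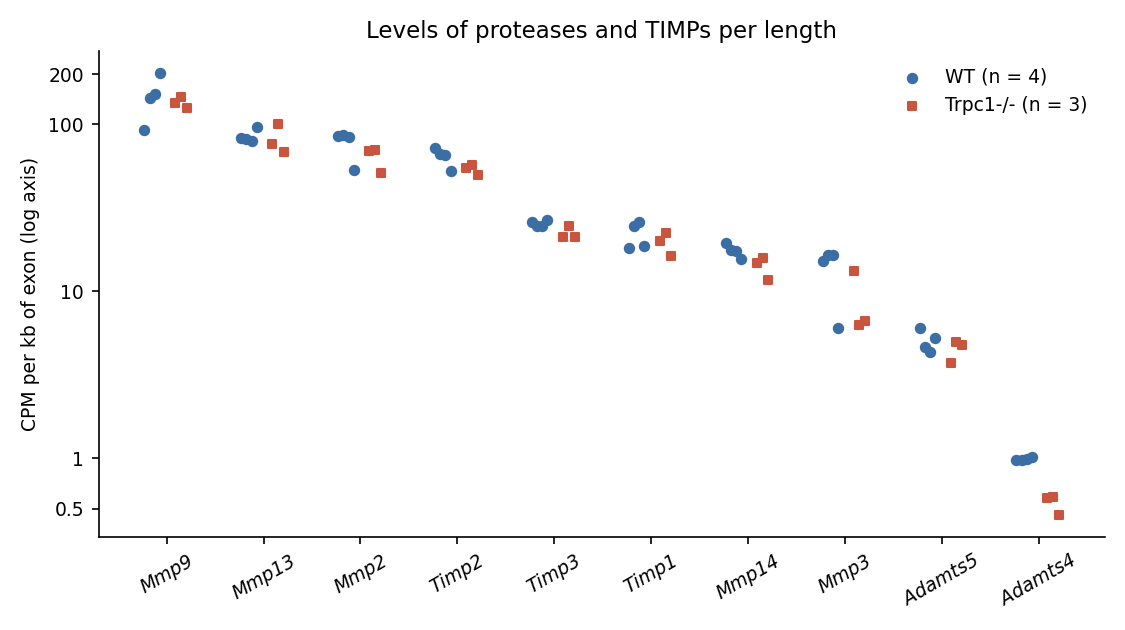
Points give the level per kb of exon in CPM (log axis) of each gene in the 4 WT samples (blue circles) and the 3 *Trpc1*-/- samples (red squares), in the order of the WT mean. Levels run from 148 CPM per kb for *Mmp9* down to 0.992 CPM per kb for *Adamts4* in WT samples, and the order is the same in *Trpc1*-/- samples.

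Summed over the 7 protease genes, the level was 348 ± 32.6 CPM per kb (SD, n = 4) among WT and 308 ± 37.3 CPM per kb (SD, n = 3) among *Trpc1*-/- samples. The 3 TIMP genes summed to 112 ± 9.04 and 95.7 ± 8.67 CPM per kb. The ratio of the protease sum to the TIMP sum was 2.59, 3.03, 3.06, and 3.89 in WT replicates 1 to 4 and 3.24, 3.30, and 3.10 in *Trpc1*-/- replicates 1 to 3. All *Trpc1*-/- samples lay within the WT range, and the extremes were WT replicates 1 and 4, which also had the lowest and highest *Mmp9*. With *Mmp9* left out of the sum, the ratio was 1.79 ± 0.0266 in WT and 1.80 ± 0.134 in *Trpc1*-/- samples. The *Trpc1*-/- values were 1.85, 1.905, and 1.65 in replicates 1 to 3, which lay on both sides of the WT range from 1.75 to 1.81. These ratios describe RNA levels and do not measure enzyme activity.

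Of 15 activators of latent metalloproteinases, 14 were tested, 3 with a mean above and 11 with a mean below WT in *Trpc1*-/- samples. The median logFC was −0.12, and it was −0.19 without WT replicate 1 or without *Trpc1*-/- replicate 2. With the mouse number series as a covariate or the lower series alone 7 had a logFC above and 7 below 0, and with the erythroid score all 14 were below 0, with a median of −0.34. The groups did not overlap for 5 of the 14 genes, against 6.42% of all genes tested with *Trpc1*-/- samples lower. The same 5 were lower at an unadjusted P under 0.05 in edgeR, against 5.49% of all genes, and DESeq2 called 0 of the 14. *Furin*, a proprotein convertase gene whose product removes the propeptide of ADAMTS proteases and MMP14, had 67.9 ± 4.40 CPM (SD, n = 4) among WT and 55.0 ± 5.12 CPM (SD, n = 3) among *Trpc1*-/- samples, with a logFC of −0.30. Of the related convertase genes, *Pcsk5* had 21.04 ± 2.84 and 15.0 ± 2.104 CPM. *Pcsk6* (also called PACE4), which activates aggrecanases in cartilage, had 85.5 ± 0.919 and 69.0 ± 12.2 CPM. *Pcsk7* had 38.1 ± 1.05 and 33.7 ± 1.33 CPM. *Plat*, the tissue plasminogen activator gene, had 13.2 ± 0.815 and 8.36 ± 2.38 CPM, with a logFC of −0.66 and an adjusted P of 0.404 in edgeR. *Ctsb*, the cathepsin B gene and the most abundant of the list, had 566 ± 107 and 632 ± 38.3 CPM, and the difference rested on WT replicate 1, without which the WT mean was 619 CPM and the logFC went from 0.16 to 0.029. *Plg*, the plasminogen gene, was below the filter.

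Of 16 substrate genes, 15 were tested and all 15 had a mean in *Trpc1*-/- samples below that of WT, and the list median of the logFC was −0.39. At an unadjusted P under 0.05 in edgeR 3 of the 15 were lower, against 5.49% of all genes tested. The groups of these 3 did not overlap, as for 6.42% of all genes with *Trpc1*-/- samples lower. DESeq2 called 0 of the 15, against 0.828% of all genes in the lower direction. The number lower at that P in edgeR was 1 without WT replicate 2 and 11 without *Trpc1*-/- replicate 2. With the erythroid score as a covariate 9 of the 15 had a logFC below 0, with a median of −0.18. *Vcan*, the versican gene, had 129 ± 24.3 CPM (SD, n = 4) among WT and 91.5 ± 5.37 CPM (SD, n = 3) among *Trpc1*-/- samples. *Comp*, the cartilage oligomeric matrix protein gene, had 578 ± 88.5 and 433 ± 65.8 CPM. *Col4a1*, a basement membrane collagen gene, had 192 ± 23.3 and 152 ± 9.09 CPM. *Col1a2*, a type I collagen gene and the most abundant of the list, had 9132 ± 1453 and 7181 ± 2107 CPM.

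**Figure D5:**
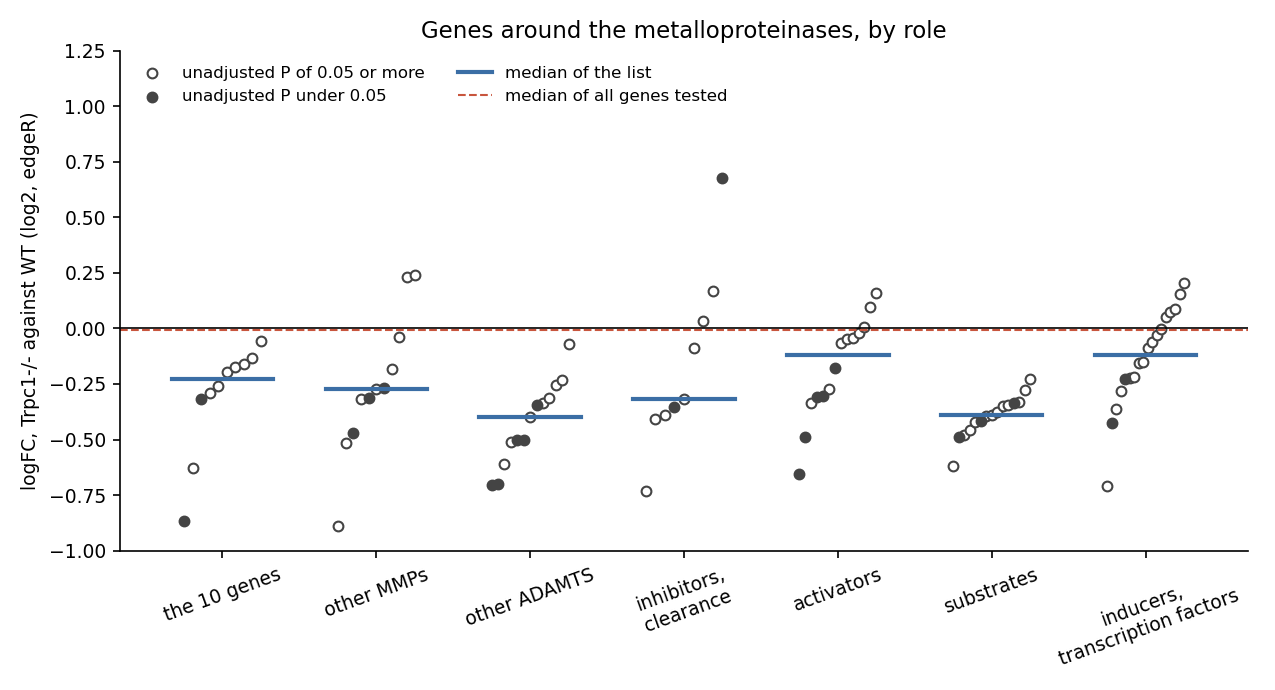
Points give the logFC (log2, edgeR) in *Trpc1*-/- against WT samples of each tested gene of the 10 genes described here and of 6 lists around them, filled where the unadjusted P was under 0.05. Blue bars mark the median of each list, all below the dashed median of all genes tested, and the single filled point above 0 is *Timp4*.

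Across the genome, edgeR called 0 of 16429 genes, with 1643 at an unadjusted P under 0.05 (10% of the genes, 5.49% lower and 4.51% higher in *Trpc1*-/- samples), limma-voom called 1, and DESeq2 called 294. Of the 10 genes, 2 (*Adamts4* and *Mmp14*) had an unadjusted P under 0.05 in edgeR, both lower. DESeq2 called 1 of the 10, *Adamts4*, against 1.79% of all genes, or 0.828% in the lower direction. These counts rest on 1 or 2 genes, and the number at an unadjusted P under 0.05 was 5 without WT replicate 4 (*Adamts4*, *Mmp2*, *Mmp3*, *Mmp14*, and *Timp2*) and 1 without WT replicate 1, 2, or 3 or without *Trpc1*-/- replicate 3. Without WT replicate 1, edgeR called 49 genes in all, and DESeq2 called 890.

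The shared direction of the 10 genes stood beside a like direction in markers of stromal and cartilage cells. All 15 chondrocyte markers had a mean in *Trpc1*-/- samples below that of WT, and the list median of the logFC was −0.47 (−0.22 with the erythroid score and −0.78 without *Trpc1*-/- replicate 2), and their sums were 7131, 7244, 7287, and 7104 CPM in WT replicates 1 to 4 and 3953, 7329, and 4213 CPM in *Trpc1*-/- replicates 1 to 3. *Trpc1*-/- replicate 2 thus had as high a sum as the WT samples. All 10 fibroblast and synovial lining markers, led by the decorin gene *Dcn*, had a lower mean, with sums of 2481, 2353, 2235.5, and 1911 CPM in WT and 1769, 1789, and 1591 CPM in *Trpc1*-/- samples. All 18 erythroid markers tested, led by *Hbb-bs*, had a higher mean, with sums of 20453, 33794, 37529, and 30679 CPM in WT and 48196, 43287, and 58699 CPM in *Trpc1*-/- samples. DESeq2 called 6 of these 18 as higher, against 0.962% of all genes in that direction. The part of the erythroid markers in the levels of the 10 genes was not tested. The erythroid score ran from 8.295 to 8.65 in WT and from 8.80 to 9.09 in *Trpc1*-/- samples (mean log2 CPM), without overlap. The fit with this score as a covariate thus cannot fully tell it apart from genotype. In that fit *Adamts4* had a logFC of −0.84 in edgeR with an adjusted P of 0.133 and was called by neither tool, while the logFC was above 0 for *Adamts5*, *Mmp13*, and *Timp3*, nearer to 0 but below it for *Mmp2*, *Mmp14*, and *Timp2*, and farther below 0 for *Mmp3*, *Mmp9*, and *Timp1*.

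Among the 10 genes themselves, levels across the 7 samples followed each other to different degrees, given as Pearson's r of log2 CPM with no test. *Mmp2* and *Timp2* had the highest r, 0.935, followed by *Mmp14* and *Timp2* with 0.905. *Mmp9* had an r of −0.42 with *Mmp2* and of −0.48 with *Timp2*, and *Mmp3* and *Mmp13*, the AP-1 motif holders shown above, had an r of −0.36. *Adamts4* had an r of 0.361 with the other aggrecanase gene, *Adamts5*, and its highest r was 0.832, with *Timp3*. The samples of these correlations differ in genotype, which is part of each value.

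The genes most like each member were taken from 11073 tested genes with a mean of at least 5 CPM, by Pearson's r of log2 CPM over the 7 samples. With so few samples a high r is common, and the number of genes with an r over 0.9 ran from 8 for *Mmp13* to 287 for *Adamts5*. For *Adamts4* the closest were *Zbtb17*, *Sh2d5*, and *Vit* (r = 0.991, 0.986, and 0.985), the last of which encodes the matrix protein vitrin. For *Adamts5* they were *Mirt1*, *Hdac4*, and *Stk11ip* (0.994, 0.992, and 0.990). For *Mmp9* they were *Yju2*, *Acp5*, and *H2-Q1* (0.990, 0.984, and 0.982), of which *Acp5* encodes tartrate-resistant acid phosphatase, a marker enzyme of osteoclasts. *Mmp2* was closest to *Ecm2*, *Col5a2*, and *Nek4* (0.975, 0.974, and 0.973), with a type V collagen gene among them. *Mmp3* was closest to *Cmtm3*, *Acta2*, and *Has1* (0.978, 0.976, and 0.973), the last encoding a hyaluronan synthase. *Mmp13* was closest to *Bbx*, *Tspyl3*, and *Lclat1* (0.948, 0.934, and 0.933), a looser likeness than for the other members. *Mmp14* was closest to *Vps52*, *Homer3*, and *Mex3d* (0.981, 0.980, and 0.980). *Timp1* was closest to *Sox4*, *Slc38a10*, and *Ctsf* (0.980, 0.975, and 0.968), of which *Sox4* encodes a transcription factor. *Timp2* was closest to *Frk*, *Pdgfra*, and *Fzd6* (0.996, 0.995, and 0.993), with the platelet-derived growth factor receptor of fibroblasts among them. *Timp3* was closest to *Fam20c*, *Lrp4*, and *Kctd18* (0.989, 0.987, and 0.984), where *Fam20c* encodes a kinase of secreted proteins.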

How the data were processed

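RNA-Seq counts of 7 samples were used, grouped by the labels into 4 WT and 3 *Trpc1*-/- samples, all after DMM. The authors made ribosome-depleted, stranded libraries from 300 ng of RNA, trimmed reads with Cutadapt 2.5, aligned them to GRCm38 with HISAT2 2.1.0, and assembled coverage with StringTie 2.0.3. The authors deposited estimated counts per gene, not normalized. All were whole numbers, so rounding changed nothing. The annotation release behind the counts is not given in the sources used here. Positions and exon lengths came from GENCODE M21, in which 55141 of the 55401 gene identifiers were found, and promoters from RefSeq.

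Genes with over 1 CPM in at least 2 samples (16429) were tested in R 4.3.3 with edgeR 4.0.16 (quasi-likelihood test) with TMM normalization and no term but genotype, and P values were adjusted over all genes (Benjamini-Hochberg, threshold 0.05). CPM values use the TMM library sizes. SEs of logFC came from the edgeR F statistic. As the test of the study, DESeq2 1.42.0 was run with default settings, and limma 3.58.1 gave limma-voom. Total counts of 52142451 to 118254070 put the floor of 3 counts at 0.0244 to 0.0632 CPM, which covers counting error only. P values measure the spread between pools of mice. The fits were tested on simulated data with known answers.

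The 10 members and the gene lists were chosen with earlier results of these data known. Named genes are the members, list genes with an unadjusted P under 0.05 in edgeR or an adjusted P under 0.05 in DESeq2, the most abundant gene of each list over all samples, the 3 genes most like each member (pseudogenes and unnamed gene models left out), and *Trpc1*. Some genes are not reported here. Other genes are named for being at 0, below the filter, or in the MMP cluster, and the marker correlations of *Mmp8* and *Mmp9* and those between members were picked after their values were seen. The alternatives were DESeq2, limma-voom, other normalizations and filters, the replicate block, the mouse number series, the erythroid score, another gene length, and each sample left out. DESeq2 with TMM factors was added after seeing the data.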

Additional observations from a re-analysis of the deposited data

Results flagged for a closer look

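In WT samples, where 4 values allow the comparison of a sample's gap with the range of its group, 4 of 19 quantities had a sample far from the others (10 members and 9 marker sums). Chance gives about 1 in 20 for a single quantity. The 19 quantities share the same 4 libraries and are not independent, so their number cannot be set against that rate. The 4 lie in WT replicates 4 and 1 only. *Mmp2* in WT replicate 4 was at 180.2 CPM, against 283 to 293 CPM in the other WT samples. *Mmp3* in WT replicate 4 was at 10.9 CPM, against 27.3 to 29.8 CPM. The summed endothelial markers of WT replicate 1 were at 434 CPM, against 415 to 418 CPM, a narrow range. The summed skeletal muscle markers of WT replicate 1 were at 1333 CPM, against 63.7 to 252 CPM. The part of these samples' cell content in the *Mmp2* and *Mmp3* levels was not tested.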

How the results depend on the processing

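Of 170 logFC values of the 10 genes under alternatives, 160 kept their direction and call, 1 (*Adamts4* in DESeq2) passed the threshold, and 9 changed sign. With the erythroid score as a covariate, the logFC was 0.43 for *Adamts5*, 0.25 for *Mmp13*, and 0.0070 for *Timp3*, and it was −1.37 for *Mmp3*, −0.51 for *Mmp9*, −0.42 for *Timp1*, −0.10 for *Mmp14*, and −0.11 for *Timp2*. That score and genotype cannot be fully told apart in these samples. For *Mmp9* the logFC was 0.092 with the replicate block, 0.19 with the mouse number series as a covariate, and 0.19 with the lower mouse number series alone. The 2 series fits take the genotype difference from the same samples, so these sign changes are not separate. With 1 sample left out, the logFC ranged from −0.30 to 0.062 for *Mmp9*, from −0.24 to 0.060 for *Mmp13*, from −0.26 to −0.055 for *Adamts5*, and from −0.27 to −0.040 for *Timp1*. The logFC of *Adamts4* lay between −0.93 and −0.76 in all these fits. EdgeR called 0 genes, with 1643 at an unadjusted P under 0.05, DESeq2 called 294, limma-voom called 1, and edgeR with 1 sample left out called 0 to 49. The number of the 10 genes at an unadjusted P under 0.05 was 2, and it was 1 with no filter, 5 with the replicate block, 5 with the lower mouse number series alone, and 1 to 5 with 1 sample left out. Of the 11 other MMP genes 3 were lower at that P, and 1 with the replicate block. DESeq2 called 1 of the 10, 0 with the replicate block (*Adamts4* at a logFC of −0.86 and an adjusted P of 0.162), 0 with the erythroid score, and 1 to 2 with 1 sample left out. Its 294 calls among all genes were 188 with no filter, 53 with the replicate block, 184 with the lower mouse number series alone, 1159 with the erythroid score, and 37 to 890 with 1 sample left out. Same-numbered samples did not deviate together (r = −0.35, −0.21, and −0.044), and pairs with different numbers had an r from −0.33 to 0.36. So few pairs cannot exclude that the numbers pair the samples. The block uses 6 samples. The ratio of protease to TIMP sums in WT was 3.14, and it was 2.92 with the longest transcript as the length. With 1 WT sample left out it was between 2.895 and 3.33. The mean of the samples left cannot move by as much as 1 SD of the group, so this range is no test of stability. The causes were not tested. The 10 genes were above the floor in every sample, and groups of 4 and 3 leave wide intervals.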

Other observations

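Markers of further cell types were examined in the same samples. The 9 macrophage markers summed to 495, 700.1, 721, and 677 CPM in WT replicates 1 to 4 and 795, 695, and 772 CPM in *Trpc1*-/- replicates 1 to 3, and 8 of the 9 had a higher mean in *Trpc1*-/- samples. The logFC was above 0 for 6 of the 9 without WT replicate 1 and for 1 of the 9 with the erythroid score as a covariate. *Mrc1*, the mannose receptor gene and the most abundant of the list over all 7 samples, had 148 ± 11.6 CPM (SD, n = 4) among WT and 186 ± 16.1 CPM (SD, n = 3) among *Trpc1*-/- samples, without overlap. *Cd163*, a haptoglobin-hemoglobin receptor gene, had 41.1 ± 7.80 and 54.9 ± 3.83 CPM, also without overlap. These were the 2 of the 9 markers without overlap, against 7.15% of all genes tested with *Trpc1*-/- samples higher. Their adjusted P values in edgeR were 0.410 and 0.455.

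All 11 osteoblast and osteocyte markers, led by *Col1a1*, had a mean below that of WT in *Trpc1*-/- samples, with sums of 13891, 10238, 9056, and 7814 CPM in WT and 6124, 10503, and 6280.0 CPM in *Trpc1*-/- samples. DESeq2 called *Sost*, the sclerostin gene of osteocytes, which fell between the groups from 36.1 ± 6.75 CPM (SD, n = 4) among WT to 21.6 ± 1.88 CPM (SD, n = 3) among *Trpc1*-/- samples, with an adjusted P of 0.00330 in DESeq2 and 0.381 in edgeR. *Phex* had a logFC of −0.34 with an adjusted P of 0.482 in edgeR. Of the chondrocyte markers, DESeq2 called *Chad*, the chondroadherin gene, at 183 ± 23.7 and 110 ± 22.5 CPM, with an adjusted P of 0.00267 in DESeq2 and 0.395 in edgeR. The other chondrocyte markers lower at an unadjusted P under 0.05 were *Comp*, *Col9a2*, *Col9a3*, *Col11a2*, and *Matn1*. With *Chad*, 6 of the 15 were lower at that P in edgeR, against 5.49% of all genes tested. This number was 1 without WT replicate 2 or 3 or without *Trpc1*-/- replicate 3, and 10 without *Trpc1*-/- replicate 2. It was 2 with the mouse number series as a covariate. Of the fibroblast and synovial lining markers, *Prg4*, the lubricin gene, *Thy1*, *Clu*, and *Mfap5* were lower at an unadjusted P under 0.05, with adjusted P values of 0.475, 0.407, 0.433, and 0.482 in edgeR. These were 4 of 10 markers, against 5.49% of all genes tested. The number lower at that P was 1 without *Trpc1*-/- replicate 3, 8 without WT replicate 4, and 1 with the erythroid score.

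The 10 endothelial markers, led by *Vwf*, summed to 434, 418, 418, and 415 CPM in WT and 384, 416, and 369 CPM in *Trpc1*-/- samples, and *Tie1* was lower at an unadjusted P under 0.05 (logFC −0.32, adjusted P = 0.407 in edgeR). The 10 skeletal muscle markers, led by *Myh4*, summed to 1333, 252, 195, and 63.7 CPM in WT and 395, 663, and 1097 CPM in *Trpc1*-/- samples. All 10 had a higher mean in *Trpc1*-/- samples, with 0 at an unadjusted P under 0.05 in edgeR. The highest sum was that of WT replicate 1, without which the mean sums were 170.2 CPM among WT and 718 CPM among *Trpc1*-/- samples. Without WT replicate 1, 9 of the 10 passed that P, against 16.9% of all genes tested. With the mouse number series as a covariate, 8 of the 10 had a logFC below 0. Over the 7 samples, log2 *Mmp9* had a Pearson's r of −0.893 with the log2 muscle sum, and the part of muscle in its level was not tested. Of the erythroid markers, those called by DESeq2 included *Rhag*, *Alas2*, *Tal1*, *Slc4a1*, and *Hbb-bt*, all higher, and *Epb42*, *Hba-a1*, *Hba-a2*, *Hbb-bs*, *Rhd*, and *Klf1* were among those higher at an unadjusted P under 0.05 in edgeR. *Elane* belongs to both the activators and the neutrophil markers, *Ctsk* to both the activators and the osteoclast markers, *Dcn* to both the fibroblast markers and the substrates, and *Col1a1* to both the osteoblast markers and the substrates, and 5 of the chondrocyte markers are also substrates.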
